A study of Drosophila melanogaster with 3 samples.

Results

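Of 7366 regions bound by the GFP-tagged repressor clockwork orange (cwo) in Drosophila melanogaster embryos, 940 (12.76%) had their summit at the promoter of a divergent gene pair. A divergent pair was taken as 2 protein-coding genes on opposite strands that point away from each other, with transcription start sites (TSSs) at most 1000 bp apart and the minus-strand TSS at the lower coordinate. A region belonged to the set when its summit lay within 1000 bp of both TSSs. The 940 summits were 25.45% of the 3693 summits within 1000 bp of any protein-coding TSS, and the 2753 others (other promoter summits below) are what they were compared with. The rule used positions only, so distances to the TSSs are given as a description, and motifs, strength and replicate support were not used by it. The rule found 24 summits with the farther TSS more than 950 bp away and 11 at pairs more than 950 bp apart, and 32 summits would have been added had both limits been 1050 bp.

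The values came from chromatin immunoprecipitation followed by sequencing (ChIP-seq), which maps where a protein sits on DNA. Whole embryos, male and female pooled and collected at 6 to 24 h according to the source name, were from the strain cwo-GFP, transgenic flies with an insertion targeting cwo and stable expression of cwo fused to GFP (eGFP in the description) at its C-terminus. Chromatin was sheared by sonication with a labelled size range of 200 to 800, and the description gives an anti-GFP antibody for the precipitation, while the antibody label reads cwo. The 3 samples are biological replicates of 1 group, and no second condition or untagged line was analysed here. The labels do not say what drives the fusion or whether untagged cwo remains. Whole embryos mix all cell types, and no marker of a cell type can be read from such data. The analysis rests on the optimal list, which holds regions that pass a reproducibility threshold (IDR, irreproducible discovery rate), and on the relaxed lists of each replicate, cut to their 7366 strongest regions. Signal is the authors' value for each region, on a scale that the sources used here do not give, and ranks run from 1 for the strongest. The lists hold no read counts, so depth is unknown. Regions are not replicates of a condition and neighbouring regions can share reads. P-values and intervals over regions cover counting error over regions only, and several shares are therefore also given for each of the 3 replicate lists.

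cwo is a basic helix-loop-helix Orange (bHLH-O) protein, a repressor known for its part in the circadian loop, where it acts at E-boxes such as CACGTG that Clock and cycle also use. Divergent promoters are common in the compact fly genome: a short stretch of DNA lies between the starts of both genes and can serve both. Many belong to broadly expressed genes. Promoters of that kind often carry the DNA replication-related element (DRE, core TATCGATA), bound by Dref, or the element known as motif 1 (core GGTCACACT), bound by M1BP, while GAGA repeats, bound by GAGA factor, and the TATA box are typical of regulated promoters.

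The stretches between both starts of 9 pairs show what these regions look like. They come from pairs with TSSs 40 to 300 bp apart, a summit between the TSSs and no annotated exon in between. They serve as examples and not as a ranking of all such pairs. The first 3 hold no CACGTG, and the next 6 hold it. All are given 5′ to 3′ on the plus strand of dm6, from the base after the minus-strand TSS to the base before the plus-strand TSS, from the RefSeq copy of that assembly. Capitals mark CACGTG, the class C site CACGCG, TATCGATA or GGTCACACT on either strand. Art3/mRpS10 (chr3R:15229409-15229664) pairs an arginine methyltransferase gene with a gene of the mitochondrial ribosome. CG13390/CG17294 (chr2L:8376798-8377034) joins genes known by number only. Tcs5/CHMP2B (chr3L:5139396-5139618) pairs a tRNA-modification kinase gene with an ESCRT-III gene.
Art3/mRpS10: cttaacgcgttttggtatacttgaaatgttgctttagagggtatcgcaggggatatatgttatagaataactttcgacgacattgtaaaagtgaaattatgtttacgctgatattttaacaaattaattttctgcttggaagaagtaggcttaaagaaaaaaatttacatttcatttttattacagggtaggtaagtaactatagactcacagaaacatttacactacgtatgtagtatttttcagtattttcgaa
CG13390/CG17294: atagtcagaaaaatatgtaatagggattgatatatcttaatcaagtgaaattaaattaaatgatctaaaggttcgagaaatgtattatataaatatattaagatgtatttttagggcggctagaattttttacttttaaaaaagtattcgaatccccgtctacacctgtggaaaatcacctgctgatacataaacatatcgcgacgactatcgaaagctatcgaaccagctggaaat
Tcs5/CHMP2B: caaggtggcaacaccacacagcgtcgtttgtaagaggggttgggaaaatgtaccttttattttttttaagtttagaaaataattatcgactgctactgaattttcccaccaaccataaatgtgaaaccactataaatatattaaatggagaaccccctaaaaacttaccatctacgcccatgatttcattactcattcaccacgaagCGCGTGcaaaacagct
Of these 3 stretches, the first 2 hold none of the 4 marked motifs, and the last holds 1 CACGCG near its plus-strand end. The summits lay at bases 119, 90 and 93 of the printed stretches.

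The 6 stretches with CACGTG are Ltn1/CG9300 (chr3L:19552291-19552419), where Ltn1 is a ubiquitin ligase of ribosome quality control, CG1105/CG1965 (chr3R:7067137-7067400), gb/CG5815 (chr3R:27112271-27112565), CG3434/CG44838 (chr3L:9460800-9461049), Traf6/GIIIspla2 (chrX:8157387-8157627), where Traf6 is a signalling adaptor, and ttm50/CG2712 (chrX:2732191-2732468), where ttm50 acts in mitochondrial import.
Ltn1/CG9300: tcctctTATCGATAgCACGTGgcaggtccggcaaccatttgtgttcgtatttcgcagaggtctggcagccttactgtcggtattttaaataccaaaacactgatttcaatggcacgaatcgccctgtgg
CG1105/CG1965: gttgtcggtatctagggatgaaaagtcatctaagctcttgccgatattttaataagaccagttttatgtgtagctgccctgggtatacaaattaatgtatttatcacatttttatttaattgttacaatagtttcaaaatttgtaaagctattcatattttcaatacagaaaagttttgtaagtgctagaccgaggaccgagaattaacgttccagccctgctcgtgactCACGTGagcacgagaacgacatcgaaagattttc
gb/CG5815: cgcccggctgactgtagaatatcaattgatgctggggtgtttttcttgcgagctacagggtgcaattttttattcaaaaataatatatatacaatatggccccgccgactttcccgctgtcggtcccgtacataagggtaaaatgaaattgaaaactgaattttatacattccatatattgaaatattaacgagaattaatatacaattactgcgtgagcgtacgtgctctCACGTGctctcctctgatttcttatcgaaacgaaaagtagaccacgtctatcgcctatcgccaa
CG3434/CG44838: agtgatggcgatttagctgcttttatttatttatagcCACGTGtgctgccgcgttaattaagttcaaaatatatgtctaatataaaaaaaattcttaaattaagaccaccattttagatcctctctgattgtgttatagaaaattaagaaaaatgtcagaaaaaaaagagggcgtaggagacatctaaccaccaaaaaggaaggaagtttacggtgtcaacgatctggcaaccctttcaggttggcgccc
Traf6/GIIIspla2: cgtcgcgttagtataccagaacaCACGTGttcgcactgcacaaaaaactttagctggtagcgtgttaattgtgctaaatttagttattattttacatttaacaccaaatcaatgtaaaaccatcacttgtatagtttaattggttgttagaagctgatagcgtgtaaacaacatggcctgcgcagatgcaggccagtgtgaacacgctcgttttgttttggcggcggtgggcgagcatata
ttm50/CG2712: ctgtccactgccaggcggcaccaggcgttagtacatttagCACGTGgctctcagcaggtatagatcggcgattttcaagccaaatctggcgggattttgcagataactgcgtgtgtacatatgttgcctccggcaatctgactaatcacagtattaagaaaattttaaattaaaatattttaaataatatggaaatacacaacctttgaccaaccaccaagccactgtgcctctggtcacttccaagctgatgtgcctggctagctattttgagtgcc
In each of the 6 stretches CACGTG stood once and away from the summit. The distance from site to summit was 86.5 bp at CG1105/CG1965, 102.5 bp at gb/CG5815, 104.5 bp at Ltn1/CG9300, 110.5 bp at ttm50/CG2712, 117.5 bp at Traf6/GIIIspla2 and 131.5 bp at CG3434/CG44838. The stretch of Ltn1/CG9300 also holds TATCGATA, next to its CACGTG. All 6 pairs were picked for a CACGTG between the TSSs, and their ranks ran from 166 at Ltn1/CG9300 to 4210 at ttm50/CG2712. Traf6/GIIIspla2 (rank 3735) and ttm50/CG2712 were not among the 3683 strongest regions. Over all CACGTG sites within 100 bp of divergent pair summits, the median distance to the summit was 39.5 bp, a value that this limit caps. Of the 6 printed sites, only that of CG1105/CG1965 lay within the limit. The others do not count as sites within 100 bp of these summits.

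Most CACGTG sites at these summits stood on the other side of a TSS, inside a transcribed gene, and the next 6 sequences show such sites. Each is 30 bases of the plus strand around CACGTG (capitals). They belong to 6 of the strongest summits with a site downstream of a TSS of their pair, chosen after their values were seen. The genes are Cftr, a chloride channel (chr3R:24543772-24543801), r (rudimentary), which starts pyrimidine synthesis (chrX:16655794-16655823), CG9300 (chr3L:19552430-19552459), hoip, a small nuclear ribonucleoprotein component (chr2L:9699807-9699836), Nle, a ribosome biogenesis factor (chr2L:568077-568106), and RIOK2, a kinase of small-subunit maturation (chr3R:25265837-25265866).
Cftr: gcaacggagcagCACGTGcagaaatagtac
r: ccaaacttctcaCACGTGcttacgcacaca
CG9300: gatgccgctttgCACGTGctgcaattgttt
hoip: ctaacgctaacgCACGTGtttgaaagcgat
Nle: aacaaaagtaaaCACGTGccgcaacttgtt
RIOK2: ctatcgtgcctgCACGTGtgaaacgaaaac
The site lay 128 bp downstream of the TSS of Cftr, 339 bp downstream of that of r, 25 bp for CG9300, 31 bp for hoip, 30 bp for Nle and 8 bp for RIOK2. For 4 of the 6 genes it was thus within 31 bp of the start. At r the distance is from the TSS of its pair, which lay 382 bp from the summit. Another protein-coding TSS was nearer to that summit, at 239 bp. Whether the site of r lay downstream of that nearer TSS is not given here. CG9300 appears in both sets, since its pair holds CACGTG between the TSSs and again inside the gene.

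The 940 summits fell at 839 distinct TSS pairs of 807 gene pairs. A single summit was found at 681 gene pairs, 2 summits at 121, 3 at 3 and 4 at 2. The TSSs stood 1 to 1000 bp apart, with a median of 333.5 bp and quartiles of 230.8 and 502.2 bp. The gap was at most 100 bp for 99 summits, at most 300 bp for 411 and at most 500 bp for 704. Between the TSSs lay 620 summits (65.96%), in the plus-strand gene 178 (18.94%) and in the minus-strand gene 142 (15.11%). The summit was nearer the minus-strand TSS in 437 cases and nearer the plus-strand TSS in 497, with 6 ties. By annotation, 479 summits (50.96%) were intergenic, 258 (27.45%) in a 5' UTR, 170 (18.09%) in an intron and 19 in a coding exon. The called region covered both TSSs for 328 summits (34.89%). The median distance to the nearest TSS was 99 bp at divergent pairs and 259 bp at other promoter summits.

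**Figure D1:**
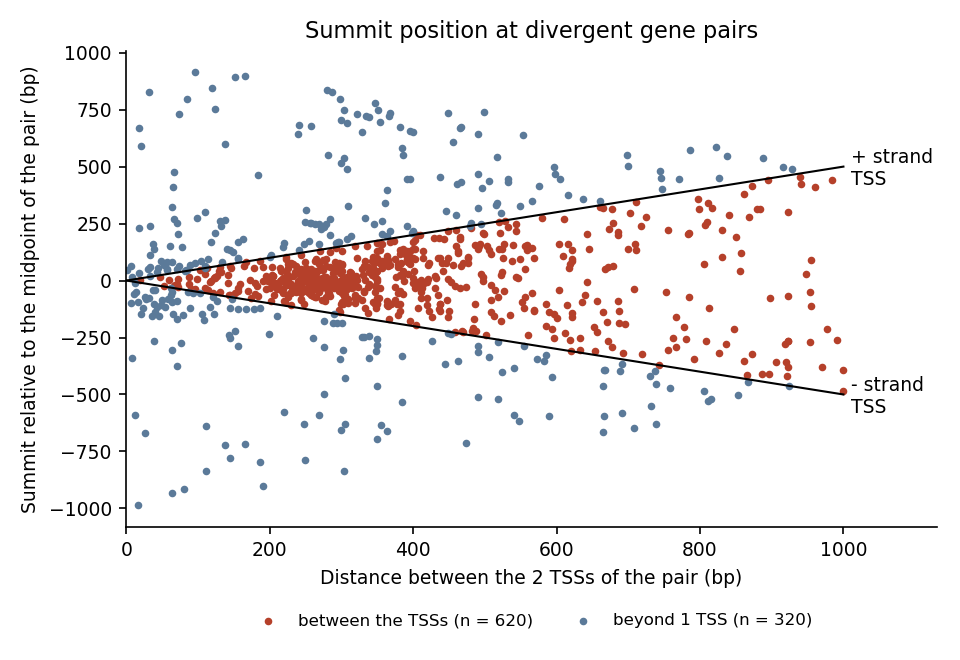
Each point is 1 of the 940 summits, placed by the distance between both TSSs of its pair (x axis, bp) and by its position relative to the midpoint of the pair (y axis, bp, positive towards the plus-strand gene); lines mark the TSSs. The 620 summits between the TSSs (red) fill the wedge and 320 (blue) lie beyond a TSS, inside a gene.

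Divergent pairs were bound more often than single promoters. Of the 2518 divergent pairs in the annotation, which hold 5052 of 13945 protein-coding genes (36.23%), 742 (29.47%, 95% Wilson interval 27.72 to 31.28) had an optimal summit within 500 bp of their midpoint. Among 8758 genes in no such pair, 1106 (12.63%, 11.95 to 13.34) had a summit within 500 bp of their 5' end, and over both classes the share was 16.4%. The odds ratio was 2.89 (95% interval 2.59 to 3.22; two-sided Fisher exact test, p = 7.72e-81). Windows were of equal width, but a pair's window can hold 2 starts. Pairs were centred on their closest TSSs over all transcripts, and single genes on their outermost 5' end only. Summits only at other starts of a single gene were therefore not counted. With 1 start per gene in both classes, the shares were 29.08% for divergent pairs and 13.44% for single promoters, an odds ratio of 2.64. In the replicate lists the shares were 30.02% ± 0.596 for divergent pairs and 12.42% ± 0.272 for single promoters (SD, n = 3), higher for pairs in 3 of 3. Among promoters with any summit in the pooled list, optimal summits were at 52.96% of divergent pairs and at 36.88% of single promoters, an odds ratio of 1.93.

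By distance between the TSSs, the bound share is given as a description with no test. It was 26.16% for pairs up to 100 bp apart, 21.73% above 100 and up to 200 bp, 36.38% above 200 and up to 300 bp, 34.9% above 300 and up to 500 bp, and 24.88% above 500 bp. The lowest of these, 73 of 336 pairs, had a Wilson interval of 17.65 to 26.44, and the highest, 187 of 514 pairs, an interval of 32.34 to 40.63. The median gap was 301 bp for bound pairs and 299 bp for unbound pairs.

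**Figure D2:**
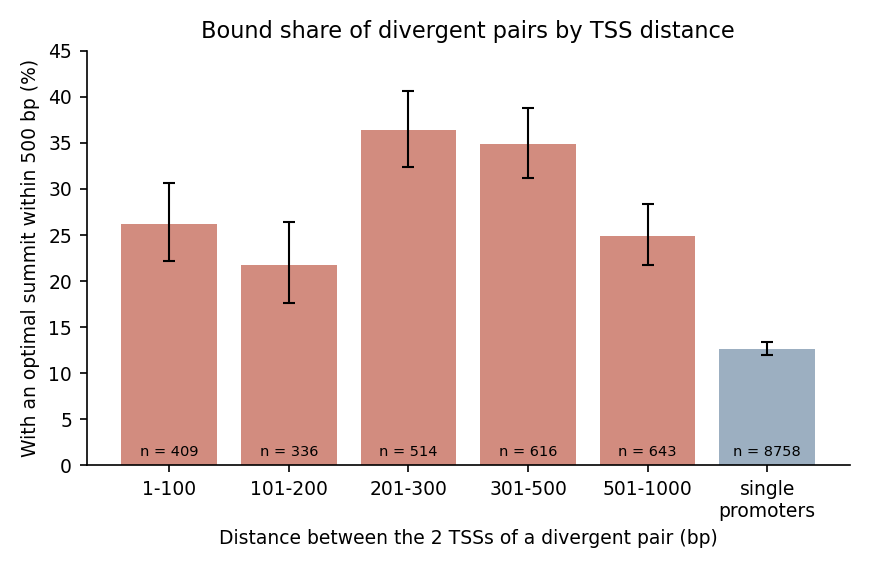
Bars give the share (y axis, %) of divergent pairs, by distance between the TSSs (x axis, bp), and of single promoters with an optimal summit within 500 bp; whiskers are 95% Wilson intervals over promoters. Each class of pairs lies above the 12.63% of single promoters, with the highest share, 36.38%, above 200 and up to 300 bp.

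In the optimal list, the strength of the summits did not differ detectably between the classes. The median signal was 466.9 at divergent pairs and 456 at other promoter summits, with ranges of 248.4 to 8427.7 at divergent pairs and 248.5 to 24168 at other promoter summits. The median rank was 3235.5 at divergent pairs and 3332 at other promoter summits. Among the 3683 strongest regions were 527 divergent pair summits (56.06%) and 1510 other promoter summits (54.85%), with an odds ratio of 1.05 (95% interval 0.902 to 1.22; two-sided Fisher exact test, p = 0.543). Among the 737 strongest were 113 divergent pair summits (12.02%) and 343 other promoter summits (12.46%), with p = 0.774 by the same exact test. In the replicate lists, 54.84% ± 1.14 of divergent pair summits and 54.67% ± 0.458 of other promoter summits (SD, n = 3) stood among the 3683 strongest. Among the 737 strongest of each replicate stood 11.33% ± 0.428 of divergent pair summits and 12.41% ± 0.091 of other promoter summits (SD, n = 3), lower at divergent pairs in 3 of 3 replicates with a mean difference of -1.08 ± 0.371 percentage points. All 3 replicates held 724 divergent pair summits (77.02%) and 2031 other promoter summits (73.77%), against 71.9% of the whole optimal list. That odds ratio was 1.19 (95% interval 0.998 to 1.43; two-sided Fisher exact test, p = 0.0508), and it passed under 5 of 12 alternative settings. Replicate 1 held 88.4% of divergent pair summits, replicate 2 held 91.91% and replicate 3 held 91.81%, and 2 summits were held by none.

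The strongest divergent summit, at rank 12, belonged to Cftr/Esyt2, which joins the chloride channel gene to an extended synaptotagmin gene (chr3R:24542979-24544268). Its signal was 8427.7, and its ranks in replicates 1, 2 and 3 were 13, 12 and 15. It lay 82 bp inside Cftr, in the 5' UTR. The next, at rank 21, belonged to Ugalt, a UDP-galactose transporter, and eIF2Bbeta, a subunit of the nucleotide exchange factor of translation initiation, with signal 6778.4 and replicate ranks of 16, 25 and 24. Vha44, subunit C of the vacuolar proton pump, and Hmgs, the HMG-CoA synthase of the mevalonate pathway, shared the summit at rank 31 (signal 5530.2; replicate ranks 24, 30 and 36), between TSSs 123 bp apart. All 3 held close ranks in every replicate. Art3/mRpS10, whose stretch is printed above, had rank 59, with 51, 55 and 71 in the replicates. Further summits were at mRpL41/CG8079 (rank 74), Chro/Ssl1 (76), CG13185/cuff (81), PNPase/Gprk2 (86), mRpS23/CenG1A (87), CG12343/CG12325 (89) and CG13390/CG17294 (90). Chro encodes a chromodomain protein of interbands and the spindle, Ssl1 a TFIIH subunit, cuff a piRNA pathway factor and PNPase a mitochondrial ribonuclease. The other 9 of the 20 strongest were Pop4/nmo (108), CG7841/Z600 (110), Pdrg1/Pal1 (123), Tcs5/CHMP2B (124), CG11309/CG7632 (144), Nnp-1/Grx3 (147), CG5611/Mtl (151), Nemp/r (163) and Ltn1/CG9300 (166). Of the 20, Nemp/r had the widest spread in ranks, with 252, 157 and 148 in replicates 1, 2 and 3. All 20 were held in all 3 replicates, 14 lay between the TSSs, 6 had CACGTG within 100 bp, 2 had CACGCG, and 0 had TATCGATA or GGTCACACT. At the other end, CG14995/Fit1 (rank 7351), CG34447/CG9886 (7363) and PXo/CG32407 (7366) had signals of 248.8, 248.5 and 248.4 and were held by 2, 0 and 1 replicates.

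**Figure D3:**
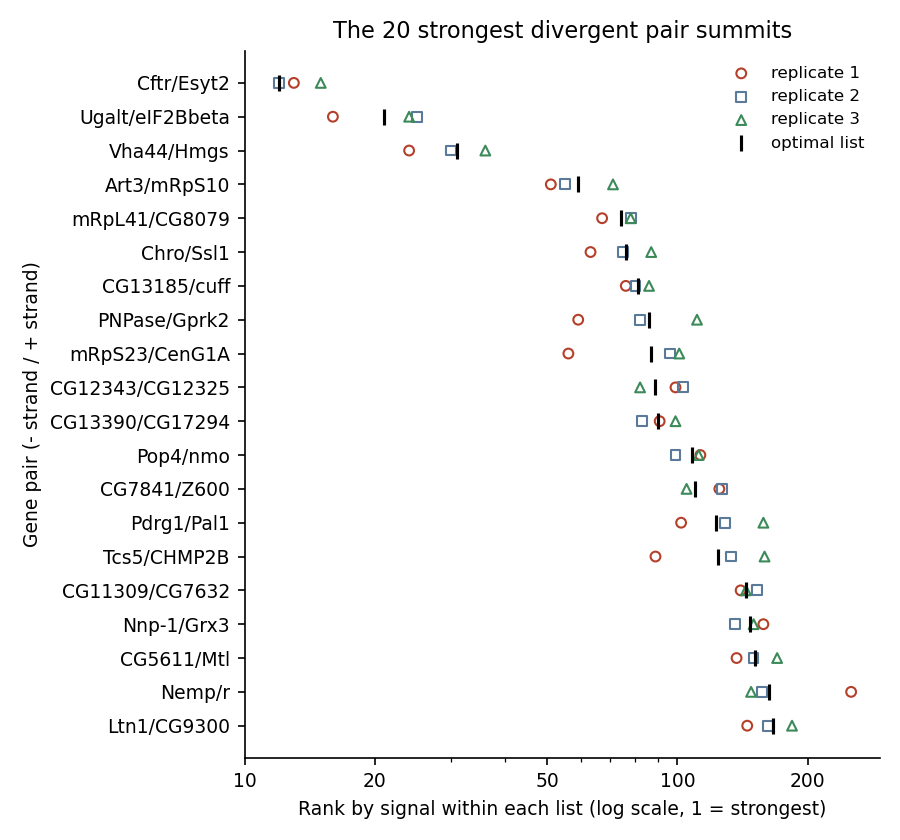
The 20 strongest divergent pair summits (y axis, minus-strand gene first) with their rank by signal (x axis, log scale) in the optimal list (bars) and in replicates 1, 2 and 3 (symbols). The pair Cftr/Esyt2 stays at ranks 12 to 15 in the 4 lists, and Nemp/r, at 148 to 252, spans the most ranks among the replicates.

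Sequence within 100 bp of the summit differed between the classes in both housekeeping elements and not detectably in the E-box. CACGTG was present at 117 of 940 divergent pair summits (12.45%) and at 363 of 2753 other promoter summits (13.19%), with an odds ratio of 0.936 (95% interval 0.742 to 1.17; two-sided Fisher exact test, adjusted p = 0.575 by Benjamini-Hochberg over 8 motifs). It was held by 13.45% of all optimal regions and by 2.8% of windows of the same length around all 19253 protein-coding TSSs. In replicates 1, 2 and 3, the CACGTG shares were 12.09%, 11.88% and 11.15% at divergent pairs, against 12.56%, 13.05% and 13.28% at other promoter summits. Those replicate shares did not overlap and the mean difference was -1.26 ± 0.835 percentage points (SD, n = 3).

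TATCGATA, the DRE core, was present at 75 divergent pair summits (7.98%) and at 43 other promoter summits (1.56%), with an odds ratio of 5.46 (95% interval 3.67 to 8.21; two-sided Fisher exact test, adjusted p = 6.15e-18). All optimal regions held it in 1.74% of cases and all TSS windows in 6.45%. In replicates 1, 2 and 3 the DRE shares were 9.12%, 7.71% and 8.49% at divergent pairs, against 1.41%, 1.61% and 1.5% at other promoter summits, with no overlap. GGTCACACT, the motif 1 core, was present at 26 divergent pair summits (2.77%) and at 17 other promoter summits (0.618%), an odds ratio of 4.58 (2.38 to 9.03; adjusted p = 2.91e-06 by the same exact test). Its share was 0.6245% of all optimal regions and 4.42% of TSS windows. Both elements are usually found close to a TSS. Divergent pair summits lay nearer to a TSS, so summits within 250 bp of a TSS were also compared alone. The odds ratios were then 3.23 for TATCGATA (adjusted p = 1.43e-08) and 2.49 for GGTCACACT (adjusted p = 0.00629), by Fisher exact tests.

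The TATA box sequence TATAAA was found at 344 divergent pair summits (36.6%) and 785 other promoter summits (28.51%), an odds ratio of 1.45 (exact test, adjusted p = 8.64e-06). It was counted wherever it lay in the window, so this is no count of TATA boxes set by position at a TSS. The median position relative to the nearest TSS (negative is upstream) was -100.5 bp at divergent pairs and -199.5 bp at other promoter summits. Of 511 sites at divergent pairs, 26 lay between -50 and -25 bp. Divergent pair windows had a median GC content of 35.82% and other promoter windows 40.3%. Among windows up to the median GC content of promoter summits, TATAAA was at 50.86% of divergent pair summits and 44.64% of other promoter summits, with an odds ratio of 1.28 that passed (exact test, adjusted p = 0.0251). Among windows above that median, TATAAA was at 13.41% of divergent pair summits and 13.96% of other promoter summits, an odds ratio of 0.954. The odds ratio of TATCGATA was 5.62 up to the median GC content and 5.07 above it. GAGAGA was at 68 divergent pair summits (7.23%) and 404 other promoter summits (14.67%), an odds ratio of 0.454 (adjusted p = 3.05e-09, exact test). The class C site CACGCG, bound by Hes-type repressors, was at 61 divergent pair summits (6.49%) and 257 other promoter summits (9.34%), with an odds ratio of 0.674 (exact test, adjusted p = 0.0112) that missed the threshold under 4 of 14 alternative settings. The GATA core TGATAA was at 17.66% of divergent pair summits and 20.92% of other promoter summits (odds ratio 0.811, adjusted p = 0.0451, exact test), a call lost under 10 of 14 settings. CAGCTG, another E-box, was at 12.23% of divergent pair summits and 10.5% of other promoter summits and did not pass (exact test, adjusted p = 0.167). Of all TSS windows, 26.92% held TATAAA, 9.74% GAGAGA, 6.41% CACGCG, 13.75% TGATAA and 13.41% CAGCTG, and among all optimal regions 30.38% held TATAAA, 12.54% GAGAGA, 7.996% CACGCG, 20.83% TGATAA and 8.92% CAGCTG. All motifs were searched on both strands.

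**Figure D4:**
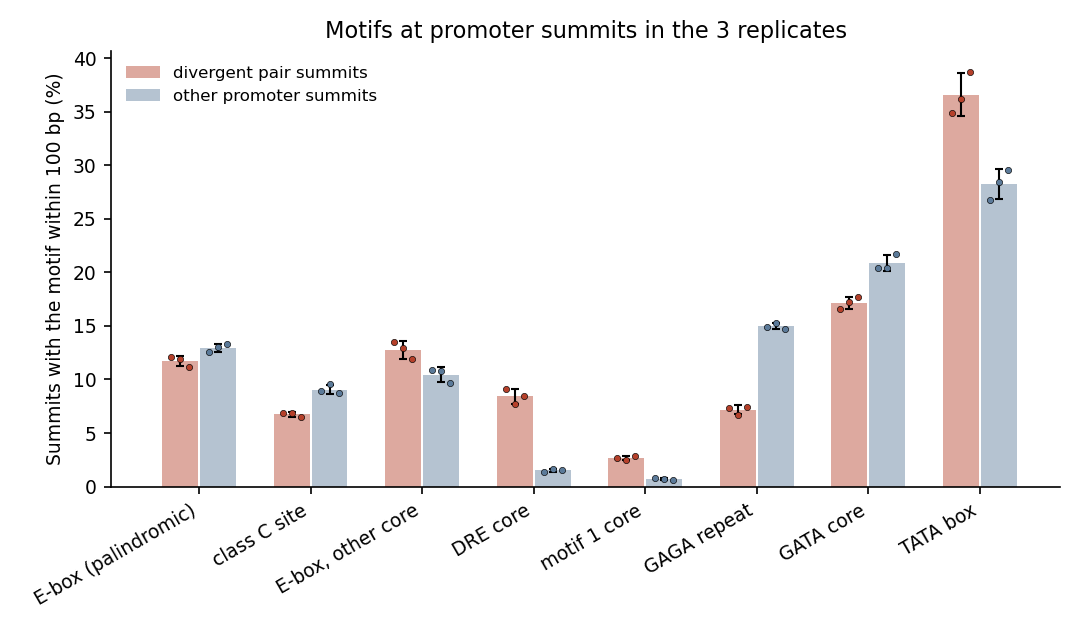
Share of summits (y axis, %) with each of 8 motifs within 100 bp, at divergent pair summits (red) and other promoter summits (blue), in the 7366 strongest regions of each replicate; bars are means, whiskers SD and points the 3 replicates. The DRE core averaged 8.44% at divergent pairs and 1.51% at other promoter summits, while the palindromic E-box averaged 11.7% at divergent pairs and 12.96% at other promoter summits.

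Most CACGTG and most DRE sites stood on opposite sides of the start. Of 121 CACGTG sites within 100 bp of divergent pair summits, 96 (79.34%) lay downstream of their nearest TSS, inside the transcribed gene, against 166 of 374 sites (44.39%) at other promoter summits. The odds ratio was 4.8 (95% interval 2.91 to 8.15; two-sided Fisher exact test, adjusted p = 1.41e-11). Of the positions searched, 35.39% were downstream of the nearest TSS at divergent pairs and 34.48% at other promoter summits. In replicates 1, 2 and 3 the downstream share of CACGTG was 78.05%, 77.31% and 78.18% at divergent pairs, against 45.58%, 46.01% and 46.52% at other promoter summits. With summits within 250 bp of a TSS only, the downstream shares were 78.1% at divergent pairs and 51.22% at other promoter summits, an odds ratio of 3.38. This comparison was added after the positions had been seen. Between 25 and 50 bp downstream of the nearest TSS stood 44 sites (46.8 per 1000 summits) at divergent pairs and 25 sites (9.08 per 1000) at other promoter summits, in a bin picked after its values were seen. The sites of hoip and Nle printed above are of this kind. The same bin was the highest of those plotted below for other promoter summits too. Within 100 bp of a TSS lay 50.53% of divergent pair summits and 20.78% of other promoter summits. Of CACGTG sites within 100 bp of their nearest TSS, 64 were downstream and 17 upstream at divergent pairs. At other promoter summits 54 were downstream and 30 upstream. Between the TSSs, where 61.51% of the bases searched were, stood 20 CACGTG sites (16.53%).

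TATCGATA at divergent pair summits lay downstream of the nearest TSS at 15 of 76 sites (19.74%) and between the TSSs at 60 (78.95%). Set against the 79.34% of CACGTG sites, this gave an odds ratio of 15.3 (95% interval 7.24 to 34.3; two-sided Fisher exact test, adjusted p = 2.69e-16). The replicate mean for TATCGATA was 21.39% ± 0.538 at divergent pairs (SD, n = 3). GGTCACACT lay downstream at 25.93% of 27 sites and TATAAA at 19.77% of 511 sites. CACGCG lay downstream at 61.54% of 65 sites, a lower share, with an odds ratio of 2.39 for CACGTG over the class C site (Fisher exact test, adjusted p = 0.0146). The sites of CACGTG were denser at the summit than around it, with 74.47 per 1000 summits within 50 bp and 16.39 per 1000 in an equal length 300 to 500 bp away. For TATCGATA they were 41.49 within 50 bp and 10.21 farther out, and for GAGAGA 41.49 within 50 bp and 55.34 farther out.

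**Figure D5:**
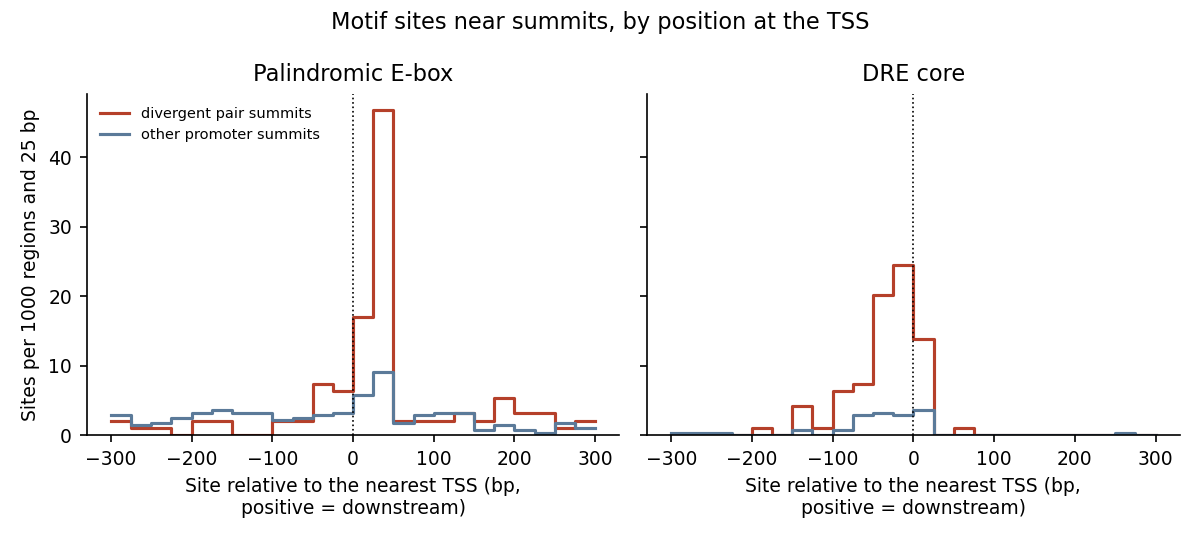
Sites of the palindromic E-box (left) and the DRE core (right) within 100 bp of a summit, per 1000 summits and 25 bp (y axis), by position relative to the nearest TSS (x axis, bp, positive downstream), for divergent pair summits (red) and other promoter summits (blue). The E-box peaks 25 to 50 bp downstream in both classes, at 46.8 per 1000 divergent pair summits and 9.08 per 1000 other promoter summits. At divergent pairs the DRE core peaks at 24.5 in the 25 bp before the TSS.

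Summits between the TSSs and summits beyond them differed in 5 of the 8 motifs. CACGTG was at 52 of 620 summits between the TSSs (8.39%) and at 65 of 320 beyond a TSS (20.31%), with an odds ratio of 0.3596 (95% interval 0.237 to 0.543; two-sided Fisher exact test, adjusted p = 1.52e-06). CACGCG was at 3.87% of summits between and 11.56% of summits beyond (exact test, adjusted p = 4.58e-05), and GAGAGA at 5.645% of summits between and 10.31% of summits beyond (exact test, adjusted p = 0.0181). TATCGATA was at 60 summits between (9.68%) and 15 beyond (4.69%), with an odds ratio of 2.18 (exact test, adjusted p = 0.01475), and TATAAA at 43.23% between and 23.75% beyond (adjusted p = 2.11e-08). Median GC content was 33.33% between the TSSs and 43.53% beyond, and its part in these differences was not tested. CAGCTG, GGTCACACT and TGATAA did not pass, with odds ratios of 1.05, 1.17 and 1.33.

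CACGTG went with strength among the divergent pair summits and the DRE did not detectably. The trend of CACGTG was not particular to divergent pairs. CACGTG was at 67 of the strongest 313 summits (21.41%, Wilson interval 17.22 to 26.28), 31 of the middle 314 (9.87%) and 19 of the weakest 313 (6.07%, 3.92 to 9.29). Strongest over weakest gave an odds ratio of 4.205 (95% interval 2.42 to 7.63; two-sided Fisher exact test, adjusted p = 1.87e-07 over 8 motifs). TATAAA was at 42.17% of the strongest and 31.31% of the weakest (odds ratio 1.6, exact test, adjusted p = 0.0247). TATCGATA was at 7.03% of the strongest and 9.585% of the weakest, an odds ratio of 0.714 with an interval of 0.382 to 1.31 (exact test, adjusted p = 0.497). The median rank of divergent pair summits was 1768 with CACGTG, 3395 with TATCGATA and 3395.5 with neither. At other promoter summits it was 2142 with CACGTG, 2774 with TATCGATA and 3516 with neither. Of other promoter summits at ranks 1 to 737, 27.99% had CACGTG, against 4.348% at ranks 6630 to 7366. The next counts are for divergent pair summits. Both motifs stood together at 18 summits, CACGTG alone at 99, TATCGATA alone at 57 and neither at 766. At 702 summits (74.68%) none of the 4 motifs marked by capitals in the printed stretches was present, the pairs Art3/mRpS10 and CG13390/CG17294 among them. A summit with both was at Kots/Orc2, where Orc2 is a subunit of the origin recognition complex (rank 317; 337, 335 and 318 in the replicates).

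Bound divergent pairs held CACGTG more often than unbound ones. The motif was within 500 bp of the midpoint in 193 of 742 bound pairs (26.01%) and 160 of 1776 unbound pairs (9.01%), with an odds ratio of 3.55 (95% interval 2.8 to 4.5; two-sided Fisher exact test, p = 7.63e-27). Single promoters gave 244 of 1106 bound (22.06%) and 824 of 7652 unbound (10.77%), an odds ratio of 2.345 (1.99 to 2.76; p = 2.83e-23 by the same exact test). The ratio of both odds ratios was 1.51 (1.14 to 2; interaction term of a logistic model over n = 11276 promoters, p = 0.00378), and it missed the threshold under 5 of 9 alternative settings. In narrower windows, within 100 bp of the midpoint, CACGTG was at 43 bound pairs (5.795%) and 17 unbound pairs (0.957%), an odds ratio of 6.36 (3.52 to 12; exact test, adjusted p = 7.985e-11). TATCGATA was at 7.55% of bound and 8.9% of unbound pairs there, with an odds ratio of 0.836 (0.597 to 1.16; exact test, adjusted p = 0.493). GGTCACACT was at 2.695% of bound and 5.12% of unbound pairs (odds ratio 0.513, exact test, adjusted p = 0.015), and TATAAA at 45.28% of bound and 38.91% of unbound pairs (1.3, adjusted p = 0.0133). The 43 bound pairs with CACGTG near the midpoint were mostly those with close TSSs. They were 21 of the 107 bound pairs up to 100 bp apart and 14 of the 73 above 100 and up to 200 bp. At wider gaps they were 4 of 187 above 200 and up to 300 bp, 2 of 215 above 300 and up to 500 bp, and 2 of 160 above 500 bp. The pattern was not particular to CACGTG. TATCGATA near the midpoint was at 16.82% of bound pairs up to 100 bp apart and at 1.25% of those above 500 bp.

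Ribosomal protein genes gave the largest count of genes with a divergent pair summit among 15 lists. Lists are described by counts, and over all genes of divergent pairs 1677 of 5052 (33.2%) had a divergent pair summit, with a median rank of 2972. Of 85 cytosolic ribosomal protein genes, 52 were in a divergent pair and 41 of these (78.85%) had a summit there, with a median rank of 2626. RpL7, a protein of the large subunit, was strongest (rank 498; 286, 485 and 803 in the replicates), then RpS27 (rank 694; 392, 588 and 1104) and RpL34b (811). By rank, both RpL7 and RpS27 were strongest in replicate 1 and weakest in replicate 3. Within the list, CACGTG was near 5 of the 41 and TATCGATA near 10, beside CACGTG near 218 and TATCGATA near 134 of all 1677 genes with a divergent pair summit. The 11 without a summit included RpL5, RpL9 and RpS13.

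Further lists bear on translation and ribosome assembly, beside the same 33.2% over all genes of divergent pairs, and differences between lists were not tested. Of 58 mitochondrial ribosomal protein genes in pairs, 21 (36.21%) had a summit, led by mRpS10, mRpL41 and mRpS23 named above. Of 23 aminoacyl-tRNA synthetase genes 10 had one, led by GlnRS (rank 261), LeuRS-m (1142) and IleRS (1207), and of 21 translation initiation factor genes 9, led by eIF2Bbeta (21), eIF4EHP (167) and eIF4A (827). Nucleolar genes, which serve ribosome assembly, had a summit at 8 of 9 in pairs, with a median rank of 1658. Nnp-1 (147), Surf6 (385) and Fib (521), the fibrillarin gene, were the strongest, pit had none, and 4 of the 8 had CACGTG, beside the 218 of 1677 over all genes. In a list of Myc, Max, Mnt, Mondo, bigmax, crp, tx and SREBP, called the Myc network here, 5 of 6 genes in pairs had a summit. SREBP (850), Max (1893) and Mnt (2404) were the strongest, and Mondo had none. These last lists hold few genes, with Wilson intervals of 56.5 to 98.01% for the nucleolar share and 43.65 to 96.99% for the Myc network.

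Lists of other complexes and processes follow, beside the 33.2% over all genes of divergent pairs, and differences between lists were not tested. The Wilson interval of the proteasome share, 2.14 to 24.14%, lay below 33.2%. Those of the other lists here with genes in pairs included it. Of 26 proteasome genes in pairs, 2 (7.69%) had a summit, Rpn3 (rank 2113) and Rpn5 (2801). The respiratory chain had 10 of 43 (23.26%), led by ND-ASHI (434), ND-42 (1504) and ND-51 (2206), and the general transcription factors 3 of 17, Taf2 (1156), Taf5 (1807) and TfIIA-L (2609). Mediator genes, which link activators to RNA polymerase, had 8 of 19, led by MED15 (537), MED30 (936) and MED27 (1764). Autophagy genes had 9 of 16, led by Atg18a (1544), Atg4b (1545) and Atg2 (1726). Genes of the vacuolar proton pump had 5 of 12, with a median rank of 389 and with Vha44 (31), Vha55 (275) and Vha100-2 (389) strongest. DNA replication genes had 3 of 6, namely Orc2 (317), dpa (2377) and Mcm2 (3778), and cell cycle genes 1 of 4, namely Cdk1 (4168), with none at CycB, fzy or stg. Of 8 clock genes (per, tim, Clk, cyc, cwo, vri, Pdp1 and cry), 0 belonged to a divergent pair, so none could have such a summit.

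The divergent pair summits were spread over the large arms. Arm 3R held 253 (26.91%), 3L 210, 2R 184, 2L 177 and X 116 (12.34%), and arm 4 held 0, while other promoter summits had 659 on 3R (23.94%) and 448 on X (16.27%).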

How the data were processed

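Per the labels, the 3 samples are biological replicates of ChIP-seq on embryos of the strain cwo-GFP. The deposited region lists give the authors' signal per region and its summit, per the labels on dm6 (the dm3 lists were not used here); for the peak caller, aligner and signal scale, the sources used here name nothing. The pooled list holds 30000 regions, and its 7366 strongest are those of the optimal list; each replicate list was cut to its 7366 strongest. A replicate held a summit that lay inside 1 of those regions.

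TSSs came from the Ensembl release 115 annotation and sequence from the RefSeq copy of the same assembly. Python 3.11.15, numpy 2.4.6, pandas 2.3.3, SciPy 1.17.1 and statsmodels 0.14.6 were used. Shares carry 95% Wilson intervals, and Fisher exact tests were two-sided at 0.05, adjusted (Benjamini-Hochberg) over motifs. Scripts were checked on simulated data. Named genes are the 20 strongest and 3 weakest summits, up to 3 strongest per list, the clock genes and the pairs printed. Alternatives changed TSS and summit limits, starts per gene, GC content, window, rank limit and replicates. Members and lists were chosen with earlier results of these data known.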

Additional observations from a re-analysis of the deposited data

How the results depend on the processing

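Of 187 alternatives over 15 results, 150 kept direction and call, where a count of motifs was taken as kept within 1.5 times its value. For CACGTG at divergent pair summits, the odds ratio was 0.7426 and passed with summits within 500 bp of both TSSs (p = 0.03505, Fisher exact test, not adjusted). It turned to 1.015 with summits within 250 bp of a TSS, 1.187 above the median GC content and 1.186 with the motif within 200 bp. The count of motifs that passed was 6 and ranged from 3 (above the median GC content) to 7 over 14 settings, and TATAAA turned to 0.9544 above the median GC content. The odds ratio for the 3683 strongest turned to 0.9601 with the 737 strongest, to 0.8682 above the median GC content and to between 0.9248 and 0.977 without replicates 1, 2 or 3. Replicate support passed at 1.309 (summits within 500 bp), 1.218 (1 start per gene), 1.283 (within 250 bp) and 1.225 (replicate summits within 200 bp), and ranged from 1.149 to 1.251 with a replicate left out, passing without replicate 3. The ratio of CACGTG odds ratios missed the threshold at 1.366 (250 bp window), 1.07 (1000 bp), 1.22 (3683 strongest) and 1.245 (promoters with a pooled summit), and ranged from 1.327 to 1.4 with a replicate left out, missing it without replicate 3. In each case the cause was not tested. TATCGATA kept odds ratios of 3.229 to 7.627, GGTCACACT 2.491 to 6.493, GAGAGA 0.2581 to 0.6517, the bound share 1.927 to 3.114, CACGTG in bound pairs 2.014 to 5.16 and CACGTG downstream 3.38 to 5.671, the last with alternatives added after the data were seen. Leaving out a replicate kept the regions that both others held, a stricter list and not a new call. The 3 samples form 1 group, so pairing applies only to both classes of summit within a replicate, where divergent minus other was 6.932 ± 0.8098 percentage points for TATCGATA and -1.259 ± 0.8354 for CACGTG (SD, n = 3). No untagged or input list was analysed, so regions that any GFP precipitation would give cannot be told apart, and without read counts no limit of detection can be given.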
